A study of Mus musculus with 10 samples.

Results

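Transcripts encoded by the mitochondrial genome were examined in trophoblast stem cells (TSCs) of the mouse, which are grown from the outer layer of the early embryo and give rise to the placenta. The members were all rows that the deposited single-cell tables place on chrMT, a choice by genome position that uses no expression value. They came to 18 of the 28227 distinct gene rows of the series, with 10 rows in the differentiated TSC table, 12 in the blastoid pTSC table, 14 in the pTSC table and 11 in the TSC table. All 18 names matched the 37 genes that the GENCODE M21 annotation places on the mouse mitochondrial chromosome (build GRCm38). They covered 9 of its 13 protein-coding genes, 2 of its 2 rRNA genes and 7 of its 22 tRNA genes. The bulk table of 17793 rows held 0 rows on chrMT.

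RNA was counted with CEL-Seq2, which primes on poly(A) and counts transcripts near their 3′ ends by molecular identifiers (UMIs). In 4 single-cell libraries, cells sorted into the 384 wells of a plate came from C57BL/6J lines that carried a GFP cassette integrated at random. Differentiated TSCs were labelled F4 and had spent 6 days in Tx medium without Fgf4, Tgfb and heparin. Blastoid pTSCs were cells of line pTS1 taken out of blastoids, the blastocyst-like structures formed with them. The pTSCs were newly derived and grown in LT21 medium, and the TSCs were labelled F4 and grown in Tx medium. Each of these groups was 1 library, so that no test between them was possible, and every interval below covers counting error only. A further 6 bulk libraries, 3 of CDX2-high and 3 of CDX2-low TSCs with an eGFP knock-in at the CDX2 coding sequence, had no member row and were used for nuclear genes alone.

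The mitochondrial genome encodes subunits of the respiratory chain and the ATP synthase, and the rRNAs and tRNAs needed to translate them inside the organelle. It is transcribed from both strands as long precursors that are cut at the tRNAs, so that the level of each mature RNA depends on processing and decay as well as on transcription. Most of its mRNAs and both rRNAs carry short poly(A) tails, which is how poly(T) priming can capture them.

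Wells with at least 2000 UMIs outside chrMT were kept, which left 318 differentiated TSC wells, 257 blastoid pTSC wells, 299 pTSC wells and 318 TSC wells. Their median UMIs outside chrMT were 8473 in differentiated TSCs, 8242 in blastoid pTSCs, 6844 in pTSCs and 15091 in TSCs. The same 384 well numbers occur in all 4 tables as plate positions, and between 208 and 270 of them were kept in both libraries of a pair. All 11 trophoblast markers examined had at least 1 UMI in every library. In differentiated TSCs Elf5 had only 2 UMIs, and Esrrb, Tfap2c and Hand1 had 3 each. The 7 fibroblast markers examined, for cells that TSC cultures can contain, summed to 11.7 CPM (UMIs scaled to 1000000 UMIs outside chrMT) in differentiated TSCs, 14.2 CPM in blastoid pTSCs, 41.03 CPM in pTSCs and 9.09 CPM in TSCs, and Dcn among them had no row in any table. In pTSCs Col1a2, Col3a1 and Lum were also at 0 and Col1a1 stood at 2.46 CPM, the rest being Thy1 and Pdgfrb. Of 7 embryonic stem cell markers examined, Nanog had no row in any table. Others were detected in every library, 4 in differentiated TSCs, 6 in blastoid pTSCs, 5 in pTSCs and 6 in TSCs. Their sums were 687 CPM in differentiated TSCs, 592 CPM in blastoid pTSCs, 1103 CPM in pTSCs and 850 CPM in TSCs. Most of this in differentiated TSCs and TSCs was Utf1 (493 CPM and 741 CPM) and Zfp42 (181 CPM and 96.1 CPM). Pou5f1 had 0 UMIs in differentiated TSCs, 6 in blastoid pTSCs, 1 in pTSCs and 3 in TSCs. Cdx2, the regulator that maintains TSCs, stood at 2.46 CPM in differentiated TSCs, 32.8 CPM in blastoid pTSCs, 54.6 CPM in pTSCs and 49.9 CPM in TSCs. The libraries labelled differentiated F4 and F4 did not match in their Y-linked genes. Ddx3y, Eif2s3y, Kdm5d and Uty together held 193 UMIs in differentiated TSCs and 0 UMIs in TSCs, against 2 UMIs in blastoid pTSCs and 1 UMI in pTSCs. All chrY rows summed to 374 UMIs in differentiated TSCs, 155 in blastoid pTSCs, 267 in pTSCs and 825 in TSCs, but most of this outside differentiated TSCs was Erdr1, a gene of the region that X and Y share. Without Erdr1 the sums were 286 UMIs in differentiated TSCs, 10 in blastoid pTSCs, 12 in pTSCs and 10 in TSCs. A difference between the cells of origin and an effect of differentiation therefore cannot be told apart in this pair.

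Of the 13 annotated mitochondrial protein-coding genes, 7 held nearly all protein-coding UMIs, 2 had 1 UMI each in all and 4 had no row in any of the tables. These 6 were mt-Co2 and mt-Co3 (cytochrome c oxidase), mt-Atp8 and mt-Atp6 (ATP synthase), and mt-Nd3 and mt-Nd4l (complex I), which lie side by side at chrM:7013-10173. In the GENCODE M21 transcripts, 5 of these 6 share between 98.0% and 99.9% of their 50-base words with pseudogenes on chromosome 1, where the nuclear copies lie side by side at chr1:24612407-24615565 on the minus strand. They are Gm28661 (copy of mt-Co2), Gm10925 (mt-Atp6), Gm28437 (mt-Co3), Gm28438 (mt-Nd3) and Gm10222 (mt-Nd4l). The last 100 bases of 5 mRNAs are shown because a 3′-end count depends on them, with capitals for bases inside an exact match of at least 50 bases to any nuclear transcript on either strand. They are GENCODE M21 transcript sequences on GRCm38, written 5′ to 3′.
mt-Co2 (chrM:7597-7696, plus strand): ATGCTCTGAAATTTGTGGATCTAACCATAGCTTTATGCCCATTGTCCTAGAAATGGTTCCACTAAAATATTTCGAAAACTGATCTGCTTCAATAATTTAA
mt-Co3 (chrM:9291-9390, plus strand): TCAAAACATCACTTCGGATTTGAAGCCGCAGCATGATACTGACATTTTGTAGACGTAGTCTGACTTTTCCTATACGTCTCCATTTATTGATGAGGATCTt
mt-Co1 (chrM:6773-6872, plus strand): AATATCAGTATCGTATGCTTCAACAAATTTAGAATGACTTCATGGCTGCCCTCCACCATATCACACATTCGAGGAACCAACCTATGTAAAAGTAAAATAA
mt-Nd2 (chrM:4852-4951, plus strand): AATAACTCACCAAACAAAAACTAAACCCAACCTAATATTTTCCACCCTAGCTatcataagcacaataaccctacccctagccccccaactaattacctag
mt-Cytb (chrM:15189-15288, plus strand): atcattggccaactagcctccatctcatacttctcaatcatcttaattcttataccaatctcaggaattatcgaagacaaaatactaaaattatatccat
The ends of mt-Co2, mt-Co3 and mt-Co1 are almost or wholly in capitals, the end of mt-Nd2 is in capitals for 52 of its 100 bases, and that of mt-Cytb for 0.

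Counts followed this sharing only in part. mt-Co2, mt-Co3, mt-Atp8 and mt-Nd4l had no row in any table. The tables list only rows with at least 1 UMI and the annotation behind them is not given in the sources used here, so that a gene counted at 0 and a gene that was not counted cannot be told apart, and no limit on their level is given. mt-Nd3 had 1 UMI, in differentiated TSCs, and mt-Atp6 had 1 UMI, in pTSCs. The exception was mt-Co1, in which 100% of the words in the last 300 bases are shared. It still held 17172 UMIs in differentiated TSCs, 5633 in blastoid pTSCs, 6979 in pTSCs and 23092 in TSCs. mt-Atp8, in which 0% of words are shared, overlaps mt-Atp6 by 43 bases, and mt-Nd4l (chrM:9877-10173) overlaps mt-Nd4 (chrM:10167-11544). A 3′-end count of an RNA that spans such a pair would fall in the downstream gene. For mt-Atp8 that gene is mt-Atp6, with 1 UMI in all, and mt-Nd4l itself shares 98.8% of its words. The part of these overlaps in the missing rows of mt-Atp8 and mt-Nd4l was not tested. mt-Nd4 shares 62.2% of its words over the whole transcript but 0% in its last 300 bases, and it was counted in every well. The 7 chromosome 1 copies themselves held 9 UMIs in differentiated TSCs, 4 in blastoid pTSCs, 10 in pTSCs and 4 in TSCs. Partial copies on chromosome 2 held more. Gm13340, which shares 27.5% of the words of mt-Co1, stood at 135 CPM in differentiated TSCs, 557 CPM in blastoid pTSCs, 395 CPM in pTSCs and 77.9 CPM in TSCs. Gm13341, which shares 35.3% of the words of mt-Co2, stood at 131 CPM in differentiated TSCs, 434 CPM in blastoid pTSCs, 439 CPM in pTSCs and 35.6 CPM in TSCs. The handling of reads that match more than 1 place is not given in the sources used here. Its part in these missing or near-empty rows was not tested. A total over chrMT rows is in practice a total over 9 rows. Among the cytochrome c oxidase and ATP synthase genes only mt-Co1 had counts to set side by side. The matches of mt-Co1 to Gm13340 stop at base 1457 of 1545. Those to Gm29216 on chromosome 1 reach its last base. Gm29216 held 2 UMIs in differentiated TSCs, 1 in blastoid pTSCs, 3 in pTSCs and 0 in TSCs. Since the last 300 bases of mt-Co1 are fully shared, a difference in read placement cannot be told apart from one in mt-Co1 level.

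**Figure D1:**
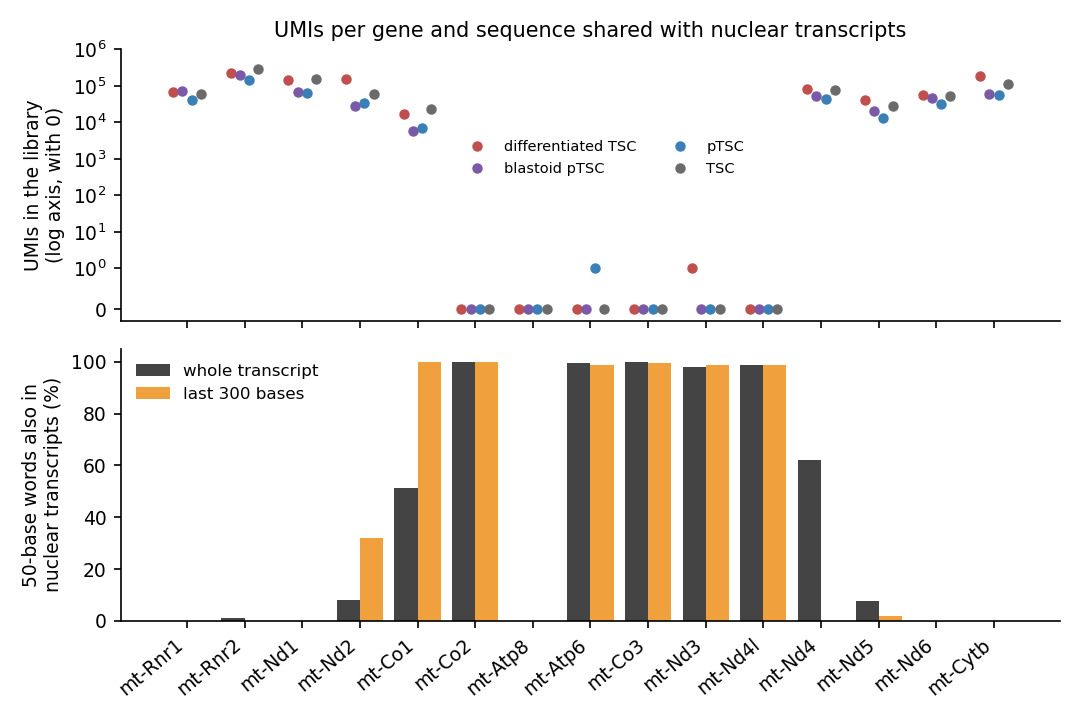
Upper panel: UMIs of each mitochondrial rRNA and protein-coding gene (genes on the x axis in the order of the annotation) in the 4 single-cell libraries, on a log axis that includes 0. Lower panel: percent of 50-base words of the whole transcript (dark bars) and of its last 300 bases (orange bars) that also occur in nuclear transcripts. The 6 genes from mt-Co2 to mt-Nd4l sit at 0 (no row) or 1 UMI, and mt-Co1 holds 5633 or more although its last 300 bases are fully shared.

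The genes mt-Nd5 and mt-Nd6 (complex I) lie on opposite strands and overlap by 14 bases at their 3′ ends, shown in capitals below. Capitals in one are the reverse complement of capitals in the other.
mt-Nd5 (chrM:13526-13565, plus strand): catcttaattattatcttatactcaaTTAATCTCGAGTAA
mt-Nd6 (chrM:13552-13591, minus strand): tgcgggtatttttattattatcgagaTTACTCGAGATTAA
The mRNA of mt-Nd5 is known to run on across mt-Nd6 in antisense, and whether the counting used strand is not given in these sources. UMIs listed under these 2 rows therefore cannot be told apart, and their sum is given beside their pooled shares and ratios.

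Mitochondrially encoded UMIs made up 22.9% of all UMIs in differentiated TSCs (exact binomial interval 22.86% to 22.94%), 19.3% in blastoid pTSCs (19.24% to 19.33%), 15.1% in pTSCs (15.05% to 15.13%) and 13.8% in TSCs (13.80% to 13.85%). Per well, the median share was 22.4% in differentiated TSCs, with quartiles of 18.0% and 26.1% and a range of 4.67% to 46.5%. It was 19.1% in blastoid pTSCs, with quartiles of 15.3% and 21.8% and a range of 1.52% to 42.3%. In pTSCs it was 14.7%, with quartiles of 12.5% and 17.5% and a range of 0.906% to 32.6%, and in TSCs 13.1%, with quartiles of 10.6% and 15.3% and a range of 2.62% to 37.3%. The wells of all 4 libraries overlapped, and the spread within a library exceeded the gap between neighbouring medians. Above the upper quartile of the library each was set against lay 274 of 318 differentiated TSC wells (86.2%, against TSCs), 163 of 257 blastoid pTSC wells (63.4%, against pTSCs) and 127 of 299 pTSC wells (42.5%, against TSCs). A share over 30% was seen in 36 differentiated TSC wells, 4 blastoid pTSC wells, 2 pTSC wells and 1 TSC well.

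**Figure D2:**
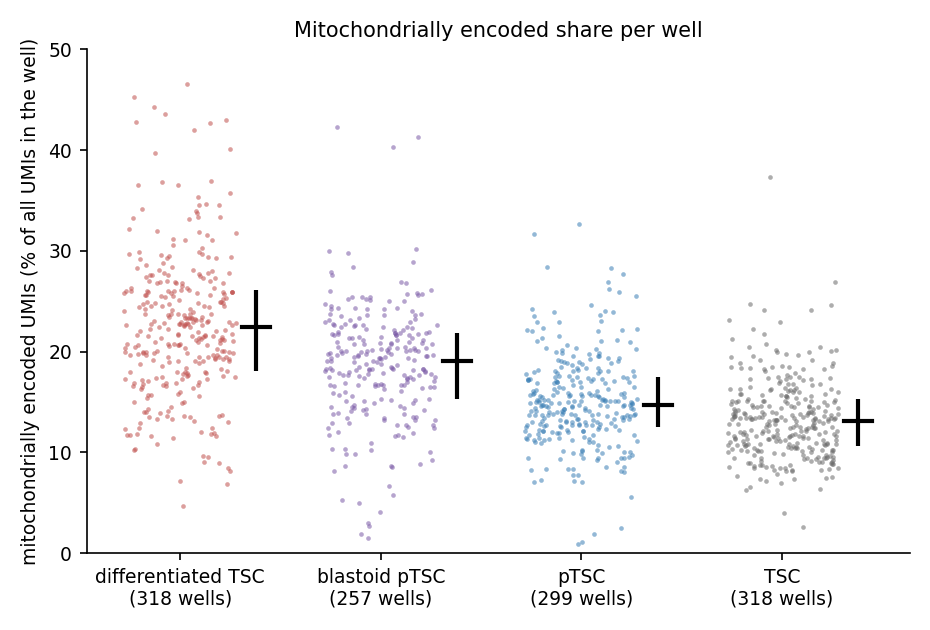
Mitochondrially encoded UMIs as a percent of all UMIs in each kept well (y axis), by library (x axis). Each point is 1 well, the bar beside the points spans the quartiles and its cross line marks the median, which is 22.4% in differentiated TSCs, 19.1% in blastoid pTSCs, 14.7% in pTSCs and 13.1% in TSCs.

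The higher share in differentiated TSCs lay beside a lower number of other UMIs. The median well held 2516.5 mitochondrially encoded UMIs in differentiated TSCs and 2092.5 in TSCs, and 8473 UMIs outside chrMT in differentiated TSCs and 15091 in TSCs. The reads sequenced per library are not known here, so that more mitochondrial RNA and less of the other RNA cannot be told apart. Within a library the share followed depth across wells weakly or not at all. Spearman correlations to the UMIs outside chrMT were -0.01 in differentiated TSCs (318 wells), 0.13 in blastoid pTSCs (257 wells), -0.06 in pTSCs (299 wells) and 0.18 in TSCs (318 wells), given as a description. Among wells with 5000 to 10000 UMIs outside chrMT, a band chosen after seeing the data, the shares were 23.1% in differentiated TSCs, 19.8% in blastoid pTSCs, 15.9% in pTSCs and 13.2% in TSCs. Just inside the minimum, wells with 2000 to 2999 UMIs had median shares of 25.9% in differentiated TSCs (15 wells), 16.5% in blastoid pTSCs (12 wells), 14.7% in pTSCs (38 wells) and 10.5% in TSCs (9 wells). Just outside it, wells with 1000 to 1999 UMIs had 26.5% in differentiated TSCs (14 wells), 16.2% in blastoid pTSCs (15 wells), 16.2% in pTSCs (30 wells) and 14.9% in TSCs (14 wells).

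A UMI stands for 1 captured molecule whatever its length, and the values are treated as estimated counts. The shares below are thus shares of the UMIs listed under chrMT rows. These rows hold at most 1 UMI for each of 6 mRNAs, which the protein-coding shares therefore leave out. By gene class, protein-coding rows held 70.4% of the mitochondrially encoded UMIs in differentiated TSCs, 50.8% in blastoid pTSCs, 57.6% in pTSCs and 58.8% in TSCs. The 2 rRNAs held 29.6% in differentiated TSCs, 49.2% in blastoid pTSCs, 42.4% in pTSCs and 41.2% in TSCs. The median well repeated this order, with rRNA at 28.5% in differentiated TSCs, 48.8% in blastoid pTSCs, 42.3% in pTSCs and 39.005% in TSCs. The differentiated TSC table listed no tRNA row, taken as 0 UMIs because other tables list such rows, which allows at most 0.000310% of the mitochondrially encoded UMIs there, and tRNA rows summed to 8 UMIs in blastoid pTSCs, 16 in pTSCs and 3 in TSCs. Of the 7 tRNA rows only mt-Tp (proline tRNA) reached 10 UMIs over the 4 libraries, with 0 in differentiated TSCs, 6 in blastoid pTSCs, 10 in pTSCs and 2 in TSCs. Mature tRNAs carry no poly(A) tail, and these counts are no measure of their levels.

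In every library the large-subunit rRNA mt-Rnr2 was the most counted member, at 22.7% of the mitochondrially encoded UMIs in differentiated TSCs, 36.0% in blastoid pTSCs, 33.2% in pTSCs and 34.2% in TSCs. It was the largest row in 156 of 318 differentiated TSC wells, 234 of 257 blastoid pTSC wells, 285 of 299 pTSC wells and 253 of 318 TSC wells. In differentiated TSCs mt-Cytb, the cytochrome b of complex III, was the largest row in a further 102 wells, against 3 TSC wells. The small-subunit rRNA mt-Rnr1 held 6.93% in differentiated TSCs, 13.2% in blastoid pTSCs, 9.19% in pTSCs and 6.94% in TSCs. The pooled ratio of mt-Rnr1 to mt-Rnr2 was 0.305 in differentiated TSCs, 0.368 in blastoid pTSCs, 0.277 in pTSCs and 0.203 in TSCs. Both rRNAs are cut from 1 precursor, and the ratio was lowest in TSCs and highest in blastoid pTSCs.

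Among the mRNAs, the complex I subunit mt-Nd1 held 14.9% of the mitochondrially encoded UMIs in differentiated TSCs, 12.1% in blastoid pTSCs, 14.9% in pTSCs and 18.3% in TSCs. mt-Nd2, also of complex I, held 15.6% in differentiated TSCs, 5.13% in blastoid pTSCs, 7.82% in pTSCs and 6.77% in TSCs, which sets the differentiated TSC library apart from the other 3. mt-Cytb held 19.6% in differentiated TSCs, 10.9% in blastoid pTSCs, 12.9% in pTSCs and 12.7% in TSCs. mt-Nd4 (complex I) was the most even row, at 8.70% in differentiated TSCs, 9.80% in blastoid pTSCs, 10.04% in pTSCs and 9.06% in TSCs. mt-Nd5 held 4.22% in differentiated TSCs, 3.69% in blastoid pTSCs, 3.08% in pTSCs and 3.23% in TSCs. mt-Nd6, the one protein-coding gene on the other strand, held 5.64% in differentiated TSCs, 8.16% in blastoid pTSCs, 7.23% in pTSCs and 6.16% in TSCs. Together these last 2 rows held 9.87% in differentiated TSCs, 11.9% in blastoid pTSCs, 10.3% in pTSCs and 9.40% in TSCs. mt-Co1, the catalytic subunit of cytochrome c oxidase, was the least counted of the 9, at 1.78% in differentiated TSCs, 1.02% in blastoid pTSCs, 1.61% in pTSCs and 2.67% in TSCs.

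**Figure D3:**
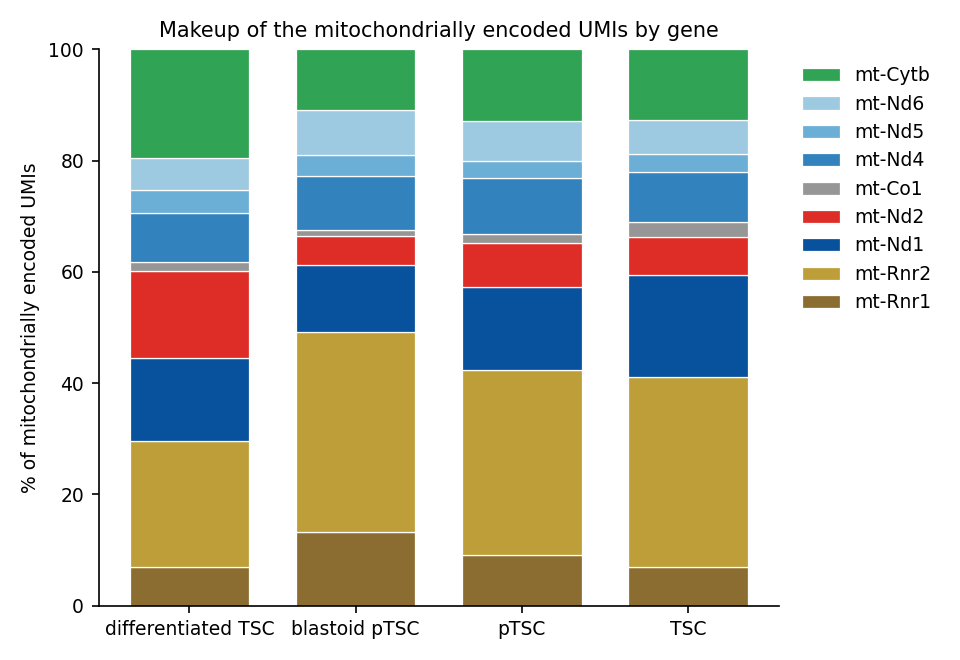
Stacked bars of the percent of mitochondrially encoded UMIs (y axis) in each of the 9 measured rows, by library (x axis), with rRNAs at the bottom. The mt-Nd2 segment is 15.6% in differentiated TSCs and between 5.13% and 7.82% in the other 3 libraries.

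Per well, the makeup of differentiated TSCs and TSCs was most distinct for mt-Nd2. Its median share of a well's mitochondrially encoded UMIs was 14.5% in differentiated TSCs (10th to 90th percentile 10.8% to 20.9%), 4.92% in blastoid pTSCs (3.09% to 8.05%), 7.38% in pTSCs (5.45% to 10.005%) and 6.51% in TSCs (4.59% to 9.03%). Of 318 differentiated TSC wells, 310 lay above the 90th percentile of TSC wells and 0 lay below the 10th. For mt-Cytb 189 of the 318 lay above the 90th percentile, and for mt-Nd5, counted without mt-Nd6, 125 did. mt-Nd1 went the other way, with 9 of 318 above the 90th percentile and 129 below the 10th, as did mt-Rnr2 with 7 above and 118 below. The ratio of mt-Nd2 to mt-Nd1, neighbours on the same strand, had a median of 0.943 in differentiated TSC wells (10th to 90th percentile 0.628 to 1.497), 0.404 in blastoid pTSC wells (0.270 to 0.626), 0.505 in pTSC wells (0.365 to 0.697) and 0.328 in TSC wells (0.204 to 0.482). The partial copy Gm13339 shares 8.19% of the words of mt-Nd2 over the whole transcript and 31.9% in its last 300 bases. It held 78 UMIs in differentiated TSCs, 42 in blastoid pTSCs, 56 in pTSCs and 21 in TSCs. mt-Nd2 itself held 150647 UMIs in differentiated TSCs, 28392 in blastoid pTSCs, 33894 in pTSCs and 58552 in TSCs. Handling of reads that match more than 1 place is not given, and its part in these values was not tested.

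**Figure D4:**
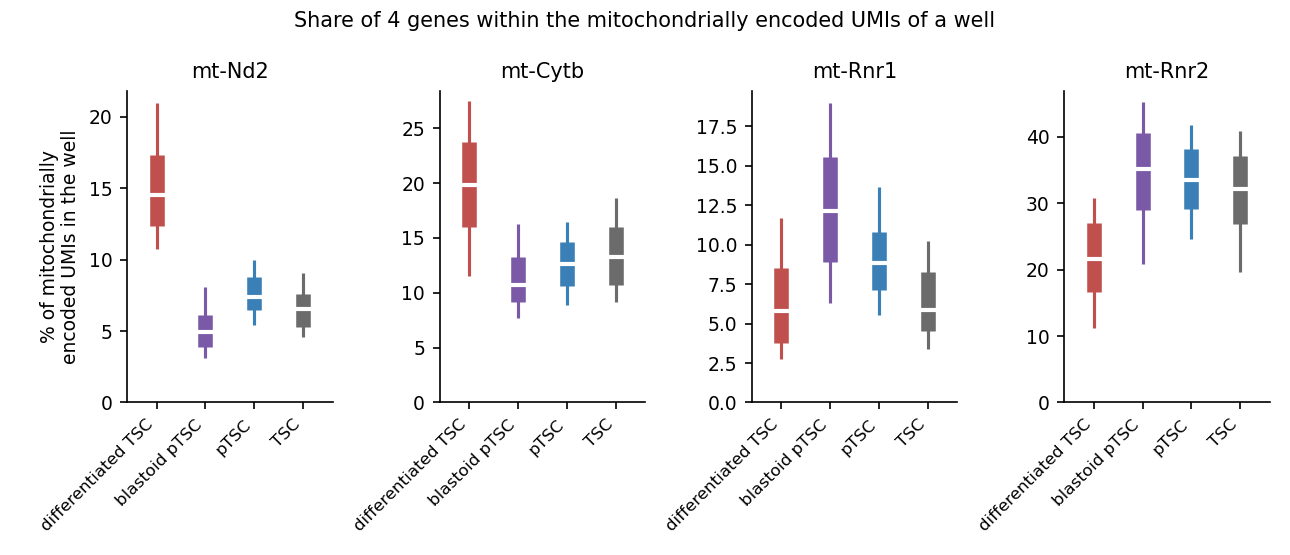
Share of mt-Nd2, mt-Cytb, mt-Rnr1 and mt-Rnr2 within the mitochondrially encoded UMIs of a well (y axis, percent), by library (x axis). White marks are medians over wells, thick bars the quartiles and thin lines the 10th to 90th percentile. For mt-Nd2 the 10th percentile of differentiated TSC wells (10.8%) lies above the 90th percentile of TSC wells (9.03%).

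The comparison of differentiated TSCs with TSCs sets cells after 6 days without the growth factors against F4 TSCs in Tx medium. The Y-linked genes also differed in this pair (193 UMIs in differentiated TSCs and 0 in TSCs). An effect of withdrawal and a difference between the cells of origin therefore cannot be told apart in the ratios below. Mitochondrially encoded UMIs per UMI outside chrMT were 1.85-fold higher in differentiated TSCs than in TSCs (95% interval 1.85 to 1.86), a log2 ratio of 0.89, while the median over 12158 measured rows outside chrMT was 0.05. At least 2-fold, with 10 or more UMIs over both libraries, was taken as a rule of size. By it 3 of 9 measured members were higher in differentiated TSCs, where 17.5% of rows outside chrMT were, and 0 of 9 were lower, where 18.0% were. mt-Nd2 stood at 46288 CPM in differentiated TSCs and 10866 CPM in TSCs, 4.26-fold higher (4.22 to 4.30). mt-Cytb stood at 58201 CPM in differentiated TSCs and 20309 CPM in TSCs, 2.87-fold higher (2.84 to 2.89). mt-Nd5 stood at 12549 CPM in differentiated TSCs and 5189 CPM in TSCs, 2.42-fold higher (2.38 to 2.46). Summed with mt-Nd6 it was 1.94-fold higher (1.93 to 1.96), under the 2-fold line. The other 6 were 1.23-fold to 1.85-fold higher, with mt-Rnr2 at 67405 CPM in differentiated TSCs and 54913 CPM in TSCs as the least, 1.23-fold (1.22 to 1.23). Over well filters, depth bands and scaling the log2 ratio of mt-Nd2 ranged from 1.93 to 2.28, that of mt-Cytb from 1.36 to 1.52 and that of mt-Nd5 from 1.11 to 1.55.

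The comparison of pTSCs with TSCs sets cells derived and grown in LT21 medium against the F4 line in Tx medium. The total was 1.11-fold higher in pTSCs (1.10 to 1.11), a log2 ratio of 0.15, against -0.04 for the median row outside chrMT. By the 2-fold rule 1 of 10 measured members was higher in pTSCs, where 17.6% of rows outside chrMT were, and 0 of 10 were lower, where 13.9% were. The members' shares were thus under or near those of other rows, and the 1 was mt-Tp with its 10 UMIs in pTSCs and 2 UMIs in TSCs. mt-Rnr1 differed most among the 9 well-counted rows on the higher side, at 16344 CPM in pTSCs and 11139 CPM in TSCs, 1.47-fold higher (1.45 to 1.49). mt-Co1 was lower, at 2863 CPM in pTSCs and 4285 CPM in TSCs, a log2 ratio of -0.58 that shrank to -0.02 in wells with 5000 to 10000 UMIs outside chrMT. mt-Nd1 was at 26540 CPM in pTSCs and 29292 CPM in TSCs (0.906-fold, 0.898 to 0.914).

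For blastoid pTSCs and pTSCs, the comparison asks how TSCs inside a blastoid differ from TSCs in culture, although the labels do not say whether pTS1 is the line of the pTSC library. The total was 1.34-fold higher in blastoid pTSCs (1.34 to 1.35), a log2 ratio of 0.43, against 0.07 for the median row outside chrMT. By the 2-fold rule 0 of 10 members were higher in blastoid pTSCs, where 13.4% of rows outside chrMT were, and 0 of 10 were lower, where 9.42% were. mt-Rnr1 came nearest, at 31620 CPM in blastoid pTSCs and 16344 CPM in pTSCs, 1.93-fold higher (1.91 to 1.96). mt-Nd5 was 1.61-fold higher (1.57 to 1.64), mt-Nd6 1.52-fold (1.495 to 1.539) and mt-Rnr2 1.46-fold (1.45 to 1.47). Summed, mt-Nd5 and mt-Nd6 were 1.54-fold higher (1.53 to 1.56). mt-Nd2 and mt-Co1 were on the lower side, with mt-Nd2 at 12259 CPM in blastoid pTSCs and 13905 CPM in pTSCs (0.882-fold, 0.868 to 0.896). Blastoids are also made with embryonic stem cells. Of 5 measured markers of these, 3 were at least 2-fold higher and 1 lower in blastoid pTSCs. Among the higher ones Tdgf1 had 63 UMIs in blastoid pTSCs and 0 in pTSCs, and Dppa5a 62 UMIs in blastoid pTSCs and 5 in pTSCs. Pou5f1, with too few UMIs for the rule, had 6 UMIs in blastoid pTSCs and 1 in pTSCs. The 7 markers together were at 592 CPM in blastoid pTSCs and 1103 CPM in pTSCs, mostly from Utf1, and their part in the result was not tested.

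**Figure D5:**
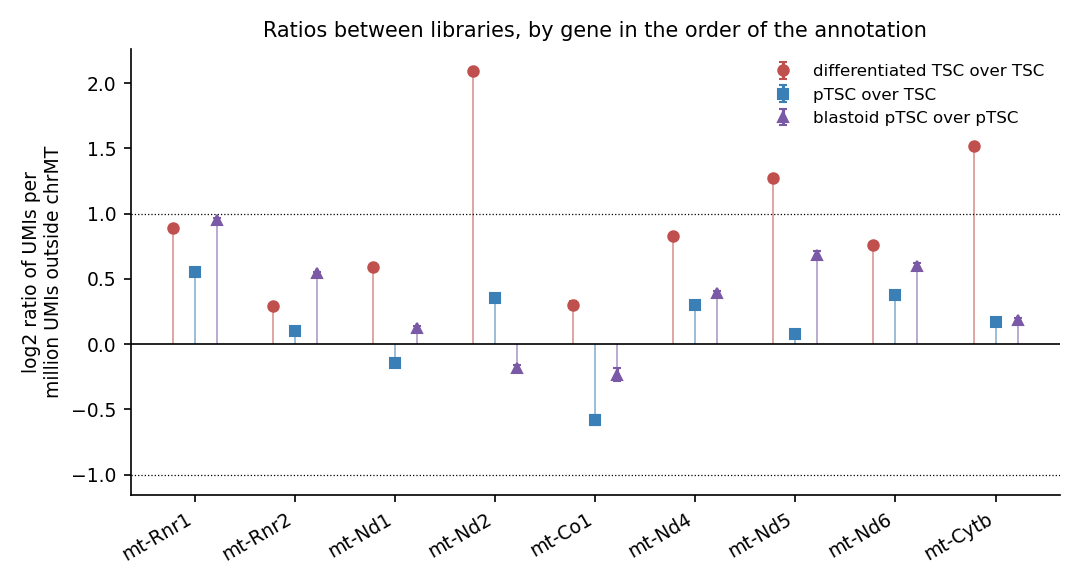
Log2 ratios of UMIs scaled to the total outside chrMT (y axis) for the 9 measured rRNAs and mRNAs (x axis, in the order of the annotation) in differentiated TSCs over TSCs, pTSCs over TSCs and blastoid pTSCs over pTSCs. Error bars are exact 95% intervals of the counting error, mostly smaller than the points, and dotted lines mark 2-fold. mt-Nd2, mt-Cytb and mt-Nd5 pass the upper line in differentiated TSCs over TSCs, while the sum of mt-Nd5 and mt-Nd6 (1.94-fold, not drawn) does not.

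Across the wells of 1 library the 9 rows, each per UMI outside chrMT, went together loosely. The median Spearman correlation over 36 pairs was 0.464 in differentiated TSCs, 0.428 in blastoid pTSCs, 0.528 in pTSCs and 0.462 in TSCs. All points of a pair share their well's denominator, and these values are a description. The closest pair was mt-Nd5 with mt-Nd6, the overlapping rows, in differentiated TSCs (0.88), and mt-Nd4 with mt-Cytb in blastoid pTSCs (0.799), pTSCs (0.82) and TSCs (0.87). In blastoid pTSCs mt-Nd5 with mt-Nd6 was nearly level with it, at 0.798. The 2 rRNAs followed each other at 0.74 in differentiated TSCs, 0.76 in blastoid pTSCs, 0.81 in pTSCs and 0.67 in TSCs. mt-Rnr1 with mt-Cytb, in contrast, was at 0.24 in differentiated TSCs, 0.22 in blastoid pTSCs, 0.32 in pTSCs and 0.08 in TSCs.

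Wells at or above the upper quartile of the share also held a larger rRNA part than wells at or below the lower quartile. The rRNAs are themselves part of the share that splits the wells, so that some of this is built into the split and the values are a description. The rRNA part was 31.6% in the upper and 26.1% in the lower of these well sets in differentiated TSCs, 52.9% and 42.1% in blastoid pTSCs, 46.6% and 38.2% in pTSCs, and 45.1% and 37.3% in TSCs. The mt-Nd2 part differed less, at 16.3% in the upper and 15.5% in the lower set in differentiated TSCs, 4.89% and 5.82% in blastoid pTSCs, 7.75% and 7.92% in pTSCs, and 6.49% in both sets in TSCs, so that it was higher in the upper set in differentiated TSCs and lower there in blastoid pTSCs and pTSCs. Median UMIs outside chrMT were 7514.5 in the upper and 7376 in the lower set in differentiated TSCs, 8574 and 6258 in blastoid pTSCs, 6331 and 6129 in pTSCs, and 16290.5 and 11797.5 in TSCs. The nuclear-retained RNA Malat1 was at 2270 CPM in the upper and 1971 CPM in the lower set in differentiated TSCs, 6774 and 6398 CPM in blastoid pTSCs, 4051 and 3812 CPM in pTSCs, and 2114 and 1330 CPM in TSCs. Its part in the spread of the share was not tested.

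Nuclear genes that make and mature mitochondrial RNA were counted from 3 lists written from general knowledge. Of rows outside chrMT, 17.5% were at least 2-fold higher and 18.0% lower in differentiated TSCs over TSCs, 17.6% higher and 13.9% lower in pTSCs over TSCs, and 13.4% higher and 9.42% lower in blastoid pTSCs over pTSCs. Of 14 measured genes of mtDNA replication and transcription, 2 were at least 2-fold higher and 0 lower in differentiated TSCs over TSCs, 3 higher and 3 lower in pTSCs over TSCs, and 1 higher and 2 lower in blastoid pTSCs over pTSCs. Their median log2 ratios were 0.06, -0.20 and -0.28 in these 3 comparisons, against 0.05, -0.04 and 0.07 over rows outside chrMT. Of 24 measured genes of mitochondrial RNA processing and stability, 1 was higher and 10 were lower in differentiated TSCs over TSCs, with a median log2 ratio of -0.69 against 0.05 over rows outside chrMT. In pTSCs over TSCs 0 of 24 were higher and 4 lower, and in blastoid pTSCs over pTSCs 1 of 22 was higher and 2 were lower, with medians of -0.38 in pTSCs over TSCs and -0.14 in blastoid pTSCs over pTSCs. Of 6 regulators, 0 were higher or lower in differentiated TSCs over TSCs, 0 were higher and 1 lower in pTSCs over TSCs, and 1 was higher and 0 lower in blastoid pTSCs over pTSCs, with medians of -0.02 in differentiated TSCs over TSCs, -0.25 in pTSCs over TSCs and 0.56 in blastoid pTSCs over pTSCs. Apart from the 10 of 24, these counts are of 4 genes or fewer and are not read as different from the shares of other rows. The counting interval included 1 for 1 of the 11 genes of RNA processing past 2-fold in differentiated TSCs over TSCs and 1 of the 4 in pTSCs over TSCs, and for 1 of the 6 genes of replication and transcription in pTSCs over TSCs and 1 of the 3 in blastoid pTSCs over pTSCs. Beside them, 7 of 11 trophoblast markers were at least 2-fold lower and 1 was higher in differentiated TSCs over TSCs. The lower ones were Cdx2, Eomes, Elf5, Sox2, Tfap2c, Esrrb and Hand1, of which Esrrb and Hand1 had 3 UMIs each in differentiated TSCs and intervals that include 1. The higher one was the keratin Krt8, at 2224 CPM in differentiated TSCs and 349.8 CPM in TSCs, 6.36-fold higher (6.04 to 6.69), while Krt18 (1.85-fold) and Tead4 (1.52-fold) were higher by less than 2-fold.

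In differentiated TSCs over TSCs the largest ratios among well-counted list genes were those of Slirp, Elac2 and Tfb2m. Slirp, which binds mitochondrial mRNAs with Lrpprc and stabilises them, stood at 50.7 CPM in differentiated TSCs and 159 CPM in TSCs, 3.14-fold lower (2.66 to 3.74). Its partner Lrpprc, named after its values were seen, stood at 285 CPM in differentiated TSCs and 698 CPM in TSCs, 2.45-fold lower (2.28 to 2.64). Elac2, which cuts the 3′ ends of mitochondrial tRNAs out of the precursor, had 12 UMIs in differentiated TSCs and 57 UMIs in TSCs, 2.87-fold lower (1.52 to 5.87). Tfb2m, a transcription factor of the mitochondrial promoters, stood at 24.6 CPM in differentiated TSCs and 9.28 CPM in TSCs, 2.65-fold higher (1.84 to 3.85). Tfam, which packages mtDNA and starts its transcription and was likewise named after its values were seen, stood at 481 CPM in differentiated TSCs, 219 CPM in blastoid pTSCs, 202 CPM in pTSCs and 297 CPM in TSCs, under 2-fold in all 3 comparisons.

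Other listed genes stood apart in pTSCs or in blastoid pTSCs. Ppargc1b, a coactivator of mitochondrial gene programmes, had 4 UMIs in pTSCs and 134 UMIs in TSCs, 15.2-fold lower (5.78 to 56.4). In blastoid pTSCs it had 49 UMIs against those 4 UMIs in pTSCs, 12.9-fold higher (4.73 to 49.2). Pnpt1, a mitochondrial RNA-degrading exonuclease, stood at 9.03 CPM in pTSCs and 68.8 CPM in TSCs, 7.63-fold lower (4.96 to 12.3), and at 9.07 CPM in blastoid pTSCs. Mterf3, a factor that represses mitochondrial transcription, had 28 UMIs in pTSCs and 22 UMIs in TSCs, 2.81-fold higher (1.55 to 5.16). Mrm1, which methylates the large mitochondrial rRNA, had 56 UMIs in blastoid pTSCs and 27 UMIs in pTSCs, 2.18-fold higher (1.36 to 3.59). Trnt1, which adds the CCA end to tRNAs, had 262 UMIs in blastoid pTSCs and 581 UMIs in pTSCs, 2.11-fold lower (1.82 to 2.45).

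The bulk libraries, with totals of 116659 to 272030 counts, were the one replicated comparison, CDX2-high over CDX2-low, and measured these nuclear lists thinly. The quasi-likelihood test of edgeR, with adjustment by Benjamini-Hochberg, called 5.89% of 3006 genes tested. Fewer cells of a type and less RNA per cell cannot be told apart in such samples. Of the listed genes 8 were tested and 2 passed. Trnt1 stood at 108, 128 and 129 CPM of total counts in CDX2-high libraries and 60.0, 21.6 and 37.04 CPM in CDX2-low libraries. The groups did not overlap, and the log2 fold change was 1.64 (SE 0.40, adjusted p = 0.0139 by edgeR and 0.104 by DESeq2). Myc, a growth regulator, stood at 88.8, 85.6 and 73.5 CPM in CDX2-high libraries and 17.1, 14.4 and 44.5 CPM in CDX2-low libraries. These did not overlap either, with a log2 fold change of 1.64 (SE 0.48, adjusted p = 0.0427 by edgeR), and DESeq2 gave no adjusted p for it. Tfam had a log2 fold change of 0.43 (SE 0.32, adjusted p = 0.514 by edgeR), and its groups overlapped.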

How the data were processed

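RNA from 4 single-cell and 6 bulk CEL-Seq2 libraries was analysed. Reads were aligned with STAR 2.5.3a, per the submitters' processing notes, while no label or header used here names a genome build, an annotation or a counting program. For bulk, the authors deposited raw counts, whole numbers for each gene in each library. The single-cell tables, as deposited, hold UMIs per gene and well, treated here as estimated counts since values reach 6112, above the 4096 labels that 6 bases allow (2 values of the TSC table). They were used as deposited. With labels of 6 bases, values above 4096 imply a correction for labels drawn more than once. Such a correction bears most on the highest rows.

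Wells with at least 2000 UMIs outside chrMT were kept, and summed UMIs were divided by the total outside chrMT (CPM). Shares carry exact binomial (Clopper-Pearson) and ratios exact conditional binomial intervals at 95%. A count of 0 was taken to allow 3 counts. No doublet caller was run on these sorted wells. On Poisson counts simulated from the TSC sums (10547 genes, depths like pTSC over TSC) 95.9% of intervals held the true ratio. These draws follow the model of the interval, so that they check its computation and not the spread between wells or libraries. Mitochondrial transcripts were compared with 141730 nuclear transcripts of GENCODE M21 for shared 50-base words. Where CPM refers to a bulk library it is scaled to that library's total counts.

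The test on bulk counts was that of edgeR 4.0.16 (R 4.3.3; filterByExpr, TMM, glmQLFit and glmQLFTest, no covariate), called at an adjusted p under 0.05, with DESeq2 1.42.0 as an alternative. On simulated bulk counts (2816 genes) 68 of 100 changes of 2-fold and 100 of 100 of 4-fold were recovered, and 8 of 176 calls were false. The planned fit and share of chrMT rows in bulk could not be made, since that table holds 0 of them. Nothing in the labels says that bulk libraries came from separate cultures, so p-values measure the spread between these libraries, which may be technical. Every protein-coding or rRNA member was named. A tRNA was named from 10 UMIs over the 4 libraries. From the 3 nuclear lists the 3 genes with the largest ratio and at least 50 UMIs over both libraries were named per comparison. The members and lists were chosen with earlier results of these data known. Sums and intervals came from Python 3.11.15 with pandas 2.3.3, numpy 2.4.6 and scipy 1.17.1.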

Additional observations from a re-analysis of the deposited data

How the results depend on the processing

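The order of the shares, differentiated TSC, blastoid pTSC, pTSC and TSC from high to low, was kept in all 8 alternatives run, 1 of which (wells with 5000 to 10000 UMIs outside chrMT) was chosen after seeing the data. Differentiated TSCs were at 22.8% with at least 5000 UMIs outside chrMT, 23.01% with no filter on wells, 20.9% without wells in which a chrMT row held over 1000 UMIs, 23.1% in the 5000 to 10000 band, 22.6% with wells weighted equally and 17.3% without the rRNA rows. Blastoid pTSCs were at 19.4% with at least 5000 UMIs, with no filter and without the 5% of wells with the most UMIs, 17.2% without rows over 1000, 19.8% in the band, 18.7% with equal weights and 10.8% without rRNA. pTSCs were at 15.1% with at least 1000 UMIs, 15.2% with no filter, 14.5% without rows over 1000, 15.9% in the band, 15.1% with equal weights and 9.29% without rRNA. TSCs were at 13.9% with no filter, 13.6% without the 5%, 11.8% without rows over 1000, 13.2% in the band, 13.3% with equal weights and 8.62% without rRNA. Leaving out rows over 1000 UMIs removes wells by the measured rows themselves (87 differentiated TSC, 78 blastoid pTSC, 27 pTSC and 106 TSC wells).

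The log2 ratio of the total stayed above 0 in all 3 comparisons and all 8 alternatives. For differentiated TSCs over TSCs it was 0.88 with at least 5000 UMIs, 0.89 with no filter, 0.92 without the 5%, 0.98 without rows over 1000, 0.98 in the band, 0.96 with equal weights and 1.15 without rRNA. For pTSCs over TSCs it was 0.16 with no filter, 0.18 without the 5%, 0.34 without rows over 1000, 0.31 in the band, 0.22 with equal weights and 0.12 without rRNA. For blastoid pTSCs over pTSCs it was 0.44 with at least 5000 UMIs, 0.44 without the 5%, 0.29 without rows over 1000, 0.38 in the band, 0.37 with equal weights and 0.25 without rRNA. In differentiated TSCs over TSCs 7 of 9 members were higher at 1.5-fold, where 28.9% of rows outside chrMT were, and 1 at 3-fold, where 8.12% were. The 3 members higher at 2-fold became 4, with mt-Rnr1, without rows over 1000 (log2 ratio 1.14) and in the band (1.02). In blastoid pTSCs over pTSCs 3 of 10 were higher and 1 lower at 1.5-fold, where 24.96% and 17.7% of rows outside chrMT were. In pTSCs over TSCs the 1 higher member became 0 with at least 50 counts, without rows over 1000 or in the band, and 2 with no count filter. Of 189 values of single genes, 81 stayed within their counting interval, 108 moved, and none past 2-fold changed sign.

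In bulk, 177 calls became 75 with DESeq2 and 81 to 189 when a library was left out. The chrMT fits and library sizes planned for bulk were not run, since its table holds no such row. No paired analysis was possible because single-cell groups have 1 library each and the bulk groups share no replicate number. Depth limits what the few UMIs of mt-Tp and the other tRNA rows can show. The causes of these shifts were not tested.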

Other observations

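Of the wells under the minimum, those with 200 to 1999 UMIs outside chrMT had median mitochondrially encoded shares of 30.2% in differentiated TSCs (47 wells), 18.0% in blastoid pTSCs, 16.8% in pTSCs and 18.0% in TSCs. The nuclear-retained RNA Neat1 stood at 81.4 CPM in differentiated TSCs, 568 CPM in blastoid pTSCs, 167 CPM in pTSCs and 91.9 CPM in TSCs over the kept wells, and Malat1 at 2002 CPM in differentiated TSCs, 6425 CPM in blastoid pTSCs, 4032 CPM in pTSCs and 1678 CPM in TSCs.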
